A study of Mus musculus with 4 samples.

Results

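A set of 10 genes of the inhibitory checkpoint system were followed through immune cells of mouse pancreatic tumours: the receptors Pdcd1 (PD-1), Lag3, Havcr2 (TIM-3), Tigit, Ctla4 and Cd160, the PD-1 ligands Cd274 (PD-L1) and Pdcd1lg2 (PD-L2), the transcription factor Tox and the ectonucleotidase Entpd1 (CD39). They were picked by symbol and make up 10 of the 32285 genes in the table, and all 10 were found. KPC tumour cells, a mouse pancreatic cancer line, were grown under the skin of syngeneic young adult C57BL/6 males. Tumours were left untreated or were given the STING agonist ADU-S100 once into the tumour, the LTbR agonist antibody 4H8 repeatedly into the peritoneum, or both agonists (the combination). Per the paper, more time passed between the single STING agonist dose and collection than between the last antibody dose and collection. The 2 agonists are thus not compared at equal times since dosing. Live CD45+ cells were sorted from tumours pooled within each group and profiled by droplet single-cell RNA sequencing of transcript 5′ ends. There was 1 library per group, so no difference between groups has a replicate check and no test of treatment was possible. Intervals are exact 95% intervals of the counts and cover counting error only. Tumour cells and stroma were removed by the sort, and ligands on those cells were not seen.

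PD-1 on activated T cells binds PD-L1 or PD-L2 on antigen-presenting cells and tumour cells and dampens signalling from the antigen receptor and CD28. CTLA-4 competes with CD28 for CD80 and CD86, LAG-3 binds MHC class II, TIGIT binds the poliovirus receptor CD155, and CD160 binds the herpesvirus entry mediator. Several of these receptors are found together on T cells that have met antigen for a long time, a state in which Tox is a leading transcription factor. PD-L1 is induced in many cells by interferons, whereas PD-L2 is largely a gene of dendritic cells and macrophages.

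The ligand genes are neighbours. In GRCm38, Cd274 lies on the plus strand of chromosome 19 from 29367455 to 29388095 and Pdcd1lg2 on the same strand from 29410919 to 29471161, with 22824 bases between them. Their levels were nevertheless distributed differently over the myeloid and dendritic cells, and their promoter windows (RefSeq, GRCm38.p6, chr19:29367188-29367487 and chr19:29410669-29410968) are shown for that reason, with the 50 transcribed bases in capitals.
Cd274: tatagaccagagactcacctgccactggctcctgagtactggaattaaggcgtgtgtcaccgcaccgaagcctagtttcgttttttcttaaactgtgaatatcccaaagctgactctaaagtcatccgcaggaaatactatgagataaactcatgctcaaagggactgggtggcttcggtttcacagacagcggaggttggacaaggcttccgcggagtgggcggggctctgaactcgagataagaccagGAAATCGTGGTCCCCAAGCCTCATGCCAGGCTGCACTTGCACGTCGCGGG
Pdcd1lg2: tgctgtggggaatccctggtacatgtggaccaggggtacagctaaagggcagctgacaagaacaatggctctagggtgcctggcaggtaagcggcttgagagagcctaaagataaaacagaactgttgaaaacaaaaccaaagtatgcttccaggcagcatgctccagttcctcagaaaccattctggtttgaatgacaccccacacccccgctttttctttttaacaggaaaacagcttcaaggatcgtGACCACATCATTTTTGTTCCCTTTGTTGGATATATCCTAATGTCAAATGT
Neither window held, on either strand, a match to any of 4 motifs searched: TTCNNNGAA (GAS, present in 8.30% of 32851 promoter windows of the same length), TGANTCA (AP-1-like, 7.81%), an ISRE-like motif (3.44%) or a kappa-B-like motif (1.63%). Promoter windows were found for 8 of the 10 genes. A GAS match lay 234 bases before a start site of Cd160 and an AP-1-like match 200 bases before that of Havcr2.

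The other genes lie apart. Pdcd1 (minus strand, 94038305 to 94052553) and Ctla4 (plus, 60887000 to 60915832) are on chromosome 1, Cd160 (minus, 96798763 to 96829351) on 3, Tox (minus, 6686353 to 6991557) on 4, Lag3 (minus, 124904361 to 124911705) on 6, Havcr2 (plus, 46454935 to 46481255) on 11, Tigit (minus, 43648867 to 43664146) on 16 and Entpd1 (plus, 40612366 to 40741602) on 19. Their exons merge to between 0.919 kb (Tigit) and 7.61 kb (Tox). Levels are therefore compared between cells and libraries, and not between genes. Cd274, Pdcd1lg2, Tox and Cd160 each overlap a gene on the other strand, so part of their counts is uncertain if reads were not assigned by strand. Ctla4 (Rpl18-ps1) and Entpd1 (Gm16027, Gm8783 and AC166063.1) overlap genes on their own strand, which strand cannot tell apart. How far these overlaps enter the counts was not tested.

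The libraries held 3955 to 7824 barcodes, of which 3748 to 7147 passed the filters of the study, with medians of 5750 to 7094 UMIs (unique transcript counts). Any 2 libraries shared 33 to 61 barcode sequences. Cells were clustered without the 10 genes, and clusters were named only from fixed markers, so the class names are rebuilt and not the authors' own. A level is given as CPM, the UMIs of the gene per 1000000 UMIs of that subset in that library. All 7 T markers were each found in at least 10% of T-like cells of every library, and the summed T markers lay between 5.84 and 10.9 CPM in macrophage- or monocyte-like cells against 3875 to 4577 CPM in T-like cells. In T-like cells the summed macrophage markers, of which 1 or 2 of 11 reached that share of cells, had 466 to 713 CPM. Mixed clusters that carried T and macrophage genes together, the larger with a median of 12423 UMIs, held 2.45% to 6.00% of the cells and were kept out of every class. Clusters of shallow cells are pointed out where they bear on a result: those led by Myo10 (median 3100 UMIs) and Nebl (1998), which belong to the T-like class, and that led by Eya1 (2264), mostly in the NK-like class, had 1.59% to 2.00% of their UMIs in Malat1. Among myeloid cells the clusters led by Psd3 (median 3514.5 UMIs, 2.23% in Malat1) and by Ccl8 with Pf4 (1404 UMIs, 0.199%) were shallow too. No alternative left these myeloid clusters out.

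Pdcd1 and Lag3 transcripts were concentrated in a Gzmb CD8-like subset, cytotoxic cells that expressed the killing protease granzyme B (302 to 552 cells per library). That subset held 49.5% of all Pdcd1 UMIs and 59.4% of all Lag3 UMIs of the untreated library with 8.1% of its cells, and 50.2% and 65.1% of those of the combination with 10.4% of its cells. Pdcd1 had 549 CPM (527 to 572) in the Gzmb CD8-like cells of the untreated library, 737 (704 to 771) under the STING agonist, 474 (450 to 500) under the LTbR agonist and 581 (559 to 604) under the combination. After each cell was thinned to 1000 UMIs, 42.0%, 48.8%, 35.6% and 42.0% of these cells had a Pdcd1 UMI, against at most 0.182% in the macrophage- or monocyte-like class. Without thinning the shares were 84.9% to 92.1% and 0.387% to 0.757%, at median depths of 6260.5 to 7440 and 7449.5 to 10308 UMIs.

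**Figure D1:**
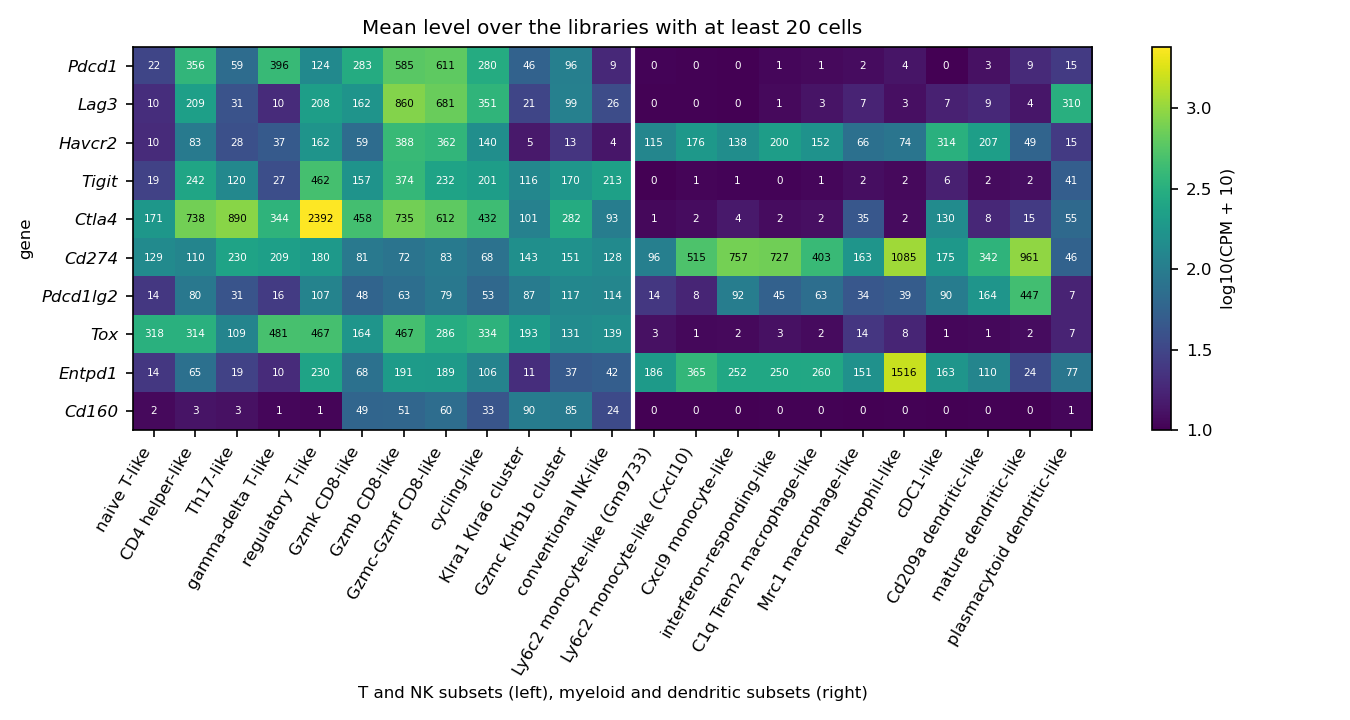
Mean CPM (number in each cell) of the 10 genes in T and NK subsets (left of the white line) and in myeloid and dendritic subsets (right), over the libraries in which a subset had at least 20 cells; the colour gives log10(CPM + 10). Pdcd1, Tigit, Ctla4, Tox and Cd160 are highest on the left, Havcr2 and Entpd1 are found on both sides, and Lag3 is seen again in the plasmacytoid dendritic-like subset.

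Across the named T subsets, Pdcd1 was highest in the 3 libraries with enough Gzmc-Gzmf CD8-like cells (525 to 697 CPM) and in Gzmb CD8-like cells (474 to 737 CPM), and these ranges overlapped. Below them came gamma-delta T-like cells (202 to 514 CPM), CD4 helper-like cells (281 to 423 CPM) and Gzmk CD8-like cells (236 to 373 CPM), whose ranges overlapped as well. Regulatory T-like cells had 72.3 to 151 CPM. Conventional NK-like cells had only 6.12 to 12.5 CPM, far under every T subset named here. The shallow Myo10 cluster stood at 413 to 822 CPM.

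Lag3 followed a steeper order. Its level in the Gzmb CD8-like cells was 936 CPM untreated, 989 under the STING agonist, 803 under the LTbR agonist and 711 under the combination. Gzmc-Gzmf CD8-like cells had 523 to 874 CPM, which overlapped that range. Gzmk CD8-like cells, a subset named for granzyme K with the interferon-induced Ifit3 among its leading genes, had 206, 226, 95.8 and 120 CPM in the same order of libraries.

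Outside the T cells Lag3 was found in the plasmacytoid dendritic-like subset, the dendritic cells known for making type I interferon. There it stood at 305 CPM untreated, 312 under the STING agonist, 290 under the LTbR agonist and 334 under the combination, a narrower spread than in any CD8 subset. Without the cells that carried a Cd3 or Trac UMI, the levels were 316, 331, 299 and 267 CPM. The other dendritic subsets had at most 12.6 CPM.

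Havcr2, a receptor of both T cells and phagocytes, divided the subsets differently. Gzmb CD8-like cells had 433, 390, 307 and 423 CPM (untreated, STING agonist, LTbR agonist, combination), and Gzmk CD8-like cells only 45.7 to 73.8 CPM. The macrophage- or monocyte-like class had 171, 163, 174 and 197 CPM. Unnamed myeloid clusters were higher, with 417 to 501 CPM in the shallow Psd3 cluster and 258 to 326 CPM in that led by Nt5dc2. Both ranges overlapped that of the Gzmb CD8-like cells. Among dendritic cells the cDC1-like subset, which presents antigen to CD8 T cells, was highest with 342 CPM in 55 untreated cells and 286 CPM in 35 cells under the LTbR agonist, whereas mature dendritic-like cells had 41.9 to 55.6 CPM. NK-like cells had 3.04 to 7.79 CPM, close to none, and the shallow Myo10 cluster had 526 to 873 CPM.

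Tigit was found in both T and NK cells. Regulatory T-like cells were highest, with 498, 467, 450 and 434 CPM in the 4 libraries, and this range did not overlap that of the Gzmb CD8-like cells (344 to 416 CPM). Conventional NK-like cells had 179 to 254 CPM, which overlapped the range of CD4 helper-like cells (195 to 299 CPM).

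Ctla4 was highest in regulatory T-like cells, which are known to carry it constitutively. The levels there were 2108 CPM (1999 to 2221) untreated, 2847 (2687 to 3014) under the STING agonist, 2316 (2236 to 2398) under the LTbR agonist and 2296 (2197 to 2399) under the combination. No other subset came near this range. Th17-like cells had 608 to 1176 CPM, CD4 helper-like cells 587 to 959 CPM and Gzmb CD8-like cells 624 to 891 CPM, and these 3 ranges overlapped.

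A smaller Ctla4 signal lay in cDC1-like cells, at 155, 93.0, 105 and 90.8 CPM, from 133, 24, 53 and 14 UMIs. Without cells that carried a Cd3 or Trac UMI it was 125, 101, 93.6 and 90.8 CPM. The 10 cells with most Ctla4 UMIs held 65.4% of them in the untreated library and 92.5% under the LTbR agonist, and the other libraries had 19 and 9 cells in all.

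Cd160, a receptor of cytotoxic lymphocytes, was a low-count gene. It was highest in unnamed clusters led by Klra1 (67.4 to 131 CPM) and by Gzmc with Klrb1b (60.3 to 124 CPM), then in Gzmc-Gzmf CD8-like cells (50.7 to 70.3 CPM), Gzmb CD8-like cells (33.2 to 71.1 CPM) and Gzmk CD8-like cells (35.4 to 61.1 CPM). The ranges of the 3 CD8-like subsets overlapped one another, and that of the Klra1 cluster lay above that of the Gzmk CD8-like cells. Conventional NK-like cells had 18.8 to 26.4 CPM. It was close to absent from regulatory T-like cells, with 0 to 2.18 CPM.

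Tox, which supports the persistence of chronically stimulated T cells, was present in nearly all T subsets. Gamma-delta T-like cells (386 to 643 CPM), Gzmb CD8-like cells (309 to 674 CPM) and regulatory T-like cells (390 to 604 CPM) could not be ordered by their ranges. The shallow Myo10 cluster stood above them, at 1079 to 2381 CPM, and the Nebl cluster, at 629 to 1328 CPM, overlapped their upper values. Tox has the longest span of the 10 genes, 305 kb, and how far intronic reads enter its count was not tested.

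Entpd1, which breaks down extracellular ATP on the path to adenosine, was above all a myeloid gene. Neutrophil-like cells had 1463 CPM (1366 to 1565) untreated, 1688 (1599 to 1780) under the STING agonist, 1371 (1302 to 1442) under the LTbR agonist and 1542 (1362 to 1739) under the combination. No other named subset came near these values, although the unnamed, shallow Psd3 cluster had 609 to 1292 CPM. The macrophage- or monocyte-like class had 205 to 306 CPM. Among T cells, regulatory T-like cells (188 to 280 CPM) and Gzmb CD8-like cells (171 to 220 CPM) overlapped, and gamma-delta T-like cells had at most 19.0 CPM. The shallow Myo10 cluster was above them, at 336 to 713 CPM.

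Cd274 was led by neutrophil-like cells and by mature dendritic-like cells, the Ccr7- and Fscn1-bearing form that carries antigen to T cells. In neutrophil-like cells it stood at 919 CPM (842 to 1000) untreated, 1413 (1332 to 1498) under the STING agonist, 855 (801 to 912) under the LTbR agonist and 1154 (999 to 1325) under the combination. Mature dendritic-like cells had 1237 CPM (1187 to 1289), 1127 (1046 to 1212), 823 (771 to 878) and 657 (598 to 720) in the same order, which overlapped the neutrophil-like range. Next came Cxcl9 monocyte-like cells (522 to 907 CPM in 3 libraries) and interferon-responding-like cells, led by interferon-induced genes (642 to 833 CPM). Both Ly6c2 monocyte-like subsets differed: the subset led by Cxcl10 had 421 to 648 CPM and the subset led by Gm9733 only 70.5 to 123 CPM, and their ranges did not overlap.

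Pdcd1lg2 was much more restricted among antigen-presenting cells. Mature dendritic-like cells had 480 CPM (449 to 513) untreated, 430 (380 to 483) under the STING agonist, 345 (312 to 382) under the LTbR agonist and 533 (480 to 590) under the combination. The next named subset, Cd209a dendritic-like cells, had 141 to 203 CPM, without overlap. Unnamed myeloid clusters reached into that lower range: those led by Psd3 (90.8 to 146 CPM), Ccl24 (75.6 to 149 CPM) and Ccl8 with Vcam1 (32.3 to 148 CPM). C1q Trem2 macrophage-like cells had 37.8 to 93.6 CPM and neutrophil-like cells 32.0 to 49.9 CPM.

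Pdcd1lg2 was also seen in lymphocytes. The shallow Eya1 cluster had 97.7 to 231 CPM. Conventional NK-like cells had 104, 137, 101 and 114 CPM, and 9.34% to 13.5% of NK-like cells had a UMI after thinning, against 2.84% to 4.31% of macrophage- or monocyte-like cells. Gzmb CD8-like cells had 48.5 to 81.0 CPM. Their untreated share was 6.1% of the Pdcd1lg2 UMIs of the library, against 22.5% for mature dendritic-like cells and 17.3% for Cd209a dendritic-like cells.

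**Figure D2:**
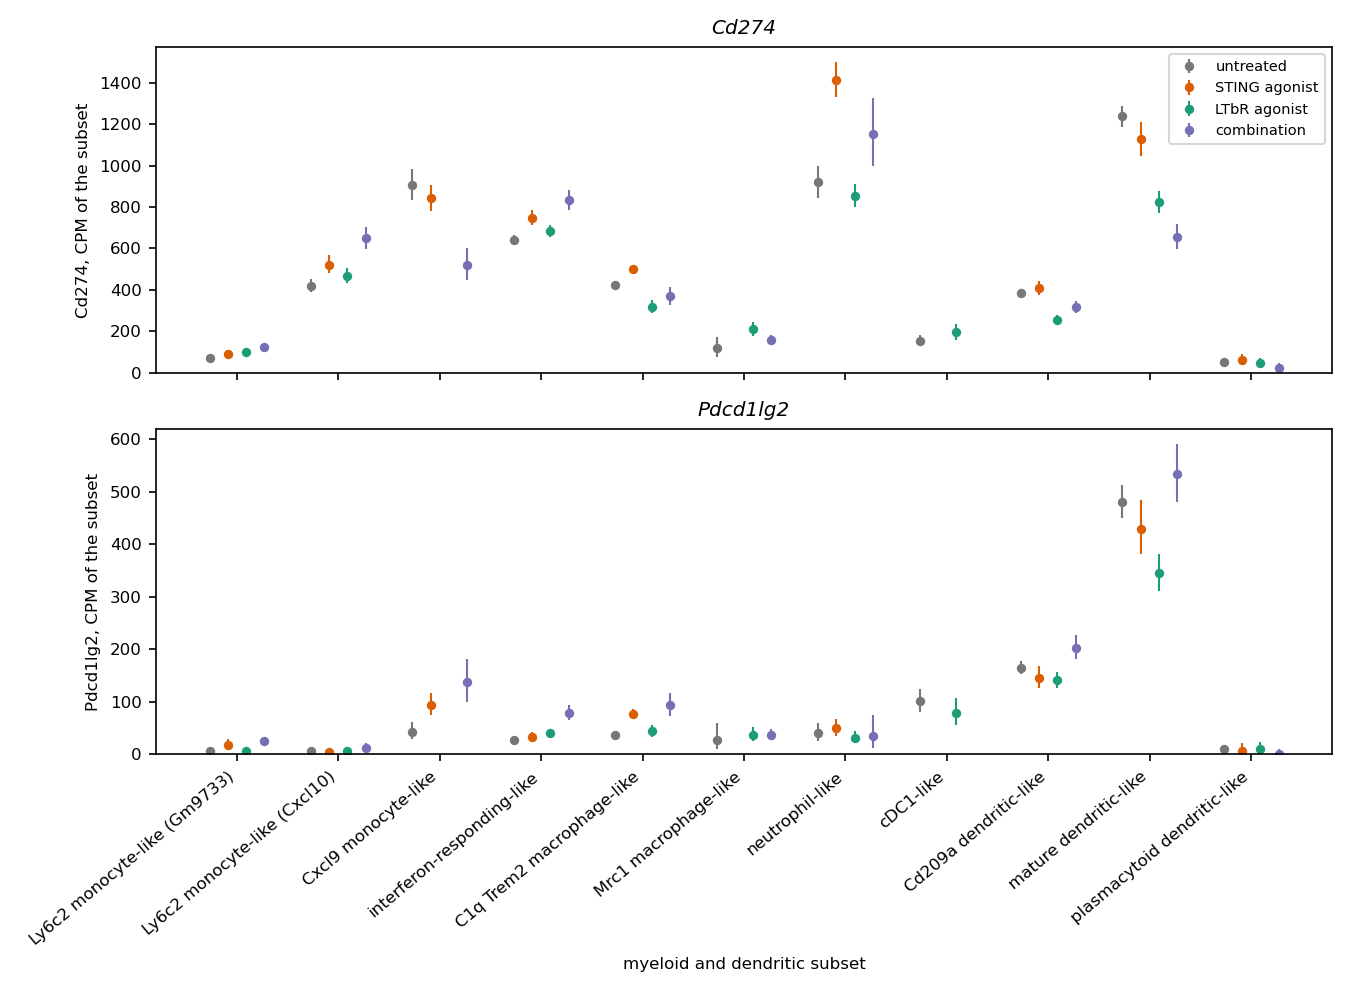
CPM of Cd274 (top) and Pdcd1lg2 (bottom) in each myeloid and dendritic subset with at least 20 cells; points are the 4 libraries and bars exact Poisson 95% intervals. Cd274 is spread over neutrophil-like, monocyte-like and mature dendritic-like cells, whereas Pdcd1lg2 is above 300 CPM only in mature dendritic-like cells.

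The treatments were compared next, as log2 ratios of (CPM + 10) between a treated and the untreated library, which understate changes of low genes. A difference is called where it passed 1.5-fold and the gene had at least 50 UMIs over the 4 libraries of the class. In the T-like class 1 of 10 genes was called under the STING agonist (Tox), 3 under the LTbR agonist (Havcr2, Entpd1 and Cd160) and 2 under the combination (Tox and Cd160), all lower than untreated. The Entpd1 call (−0.64) and the Cd160 call under the combination (−0.69) were each kept in 9 of 12 alternatives, which gave −0.77 to −0.39 and −0.89 to −0.25. Of all 11853 genes tested in that class, 1.45%, 1.81% and 1.68% were called. The median log2 ratio of the 10 genes was −0.02, −0.38 and −0.20, against 0.01, 0.00 and −0.02 over all genes. Both single agonists and the combination share the untreated library, so these comparisons are not independent.

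Within the Gzmb CD8-like cells none of the 10 genes was called under either single agonist and 2 were called under the combination, Tox and Cd160, both lower. Of 9873 genes 1.57%, 1.9% and 1.29% were called, and the medians were 0.15, −0.20 and −0.08 over the 10 genes against 0.02, 0.02 and −0.01 over all. Tox had 523 CPM (502 to 546) untreated, 362 (339 to 386) under the STING agonist, 674 (645 to 705) under the LTbR agonist and 309 (293 to 326) under the combination. Both libraries with the STING agonist were thus low and the LTbR agonist was high, with log2 ratios of −0.52 (−0.63 to −0.41), 0.36 (0.27 to 0.45) and −0.74 (−0.84 to −0.64). Against the LTbR agonist alone the combination had a ratio of −1.10. The share of cells with a Tox UMI after thinning was 35.2%, 22.4%, 39.4% and 22.8%.

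Tox was also lower under the STING agonist in the other T subsets with at least 50 cells in each library. Its log2 ratio was −0.63 in Gzmk CD8-like, −0.62 in regulatory T-like, −0.67 in CD4 helper-like and −0.58 in gamma-delta T-like cells. Under the combination the subsets went apart: −0.72 (−0.99 to −0.46) in gamma-delta T-like cells, −0.39 in regulatory T-like cells and 0.14 (−0.10 to 0.38) in CD4 helper-like cells. In conventional NK-like cells Tox had 175 CPM untreated, 107 under the STING agonist, 150 under the LTbR agonist and 125 under the combination. In the T-like class as a whole it had 598, 357, 509 and 321 CPM. Without the Myo10, Nebl and Eya1 clusters the class ratios were −0.60, 0.03 and −0.58 in place of −0.73, −0.23 and −0.88, so the class ratio under the LTbR agonist was near 0 without them and the combination no longer passed 1.5-fold.

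Cd160 in Gzmb CD8-like cells had 59.2 CPM (52.1 to 67.0) untreated, 71.1 (61.2 to 82.3) under the STING agonist, 39.4 (32.5 to 47.2) under the LTbR agonist and 33.2 (28.0 to 39.0) under the combination, from 116 to 249 UMIs. Both libraries with the LTbR agonist were below both without it. The combination ratio was −0.68 (−0.92 to −0.44). In the NK-like class Cd160 was called under the STING agonist at 0.64 (0.29 to 1.00), from 35.5 to 61.0 CPM, whereas conventional NK-like cells had 24.7 and 26.3 CPM and the Gzmc Klrb1b cluster 89.9 and 124 CPM. This call was kept in 7 of 11 alternatives, which gave −0.12 to 0.83. The Klra1 cluster, which lies outside the NK-like class, had 71.6 CPM untreated and 131 under the STING agonist.

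Pdcd1 and Ctla4 were both higher under the STING agonist in Gzmb CD8-like cells. Pdcd1 gave 0.42 (0.33 to 0.51) and Ctla4, with 701, 891, 624 and 725 CPM in the 4 libraries, gave 0.34 (0.26 to 0.42). Neither passed 1.5-fold. For Ctla4 the STING ratio was 0.45 in Gzmk CD8-like, 0.43 in regulatory T-like, 0.45 in CD4 helper-like, 0.26 (−0.01 to 0.54) in Th17-like and 0.10 (−0.26 to 0.46) in gamma-delta T-like cells. Under the combination Ctla4 was close to untreated, at 0.05, 0.07, 0.12 and 0.01 in the Gzmb CD8-like, Gzmk CD8-like, regulatory T-like and CD4 helper-like cells.

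Pdcd1 differed in other ways from subset to subset. Under the combination it was higher in Gzmk CD8-like cells (373 against 238 CPM, 0.62, 0.37 to 0.88) and CD4 helper-like cells (423 against 300 CPM, 0.48), and close to untreated in Gzmb CD8-like cells (0.08). Regulatory T-like cells under the STING agonist were low, at 72.3 CPM against 150 untreated (−0.96, −1.51 to −0.42), although the ratio was −0.03 where cells were taken by a Foxp3 UMI in place of the cluster. Gamma-delta T-like cells had 426, 514, 202 and 442 CPM, a ratio of −1.04 (−1.47 to −0.63) under the LTbR agonist alone.

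**Figure D3:**
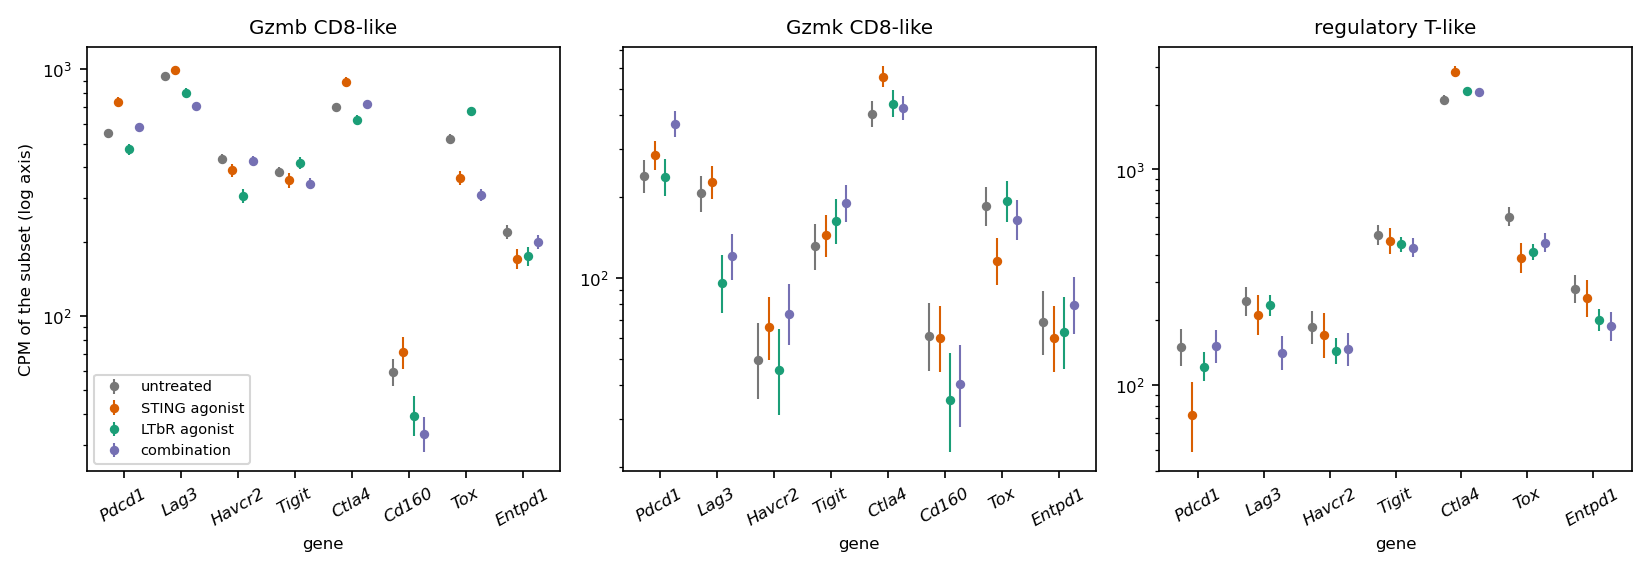
CPM (log axis) of receptor genes, Tox and Entpd1 in Gzmb CD8-like, Gzmk CD8-like and regulatory T-like cells; points are the 4 libraries and bars exact Poisson 95% intervals. Cd160 is left out of the right panel, where it had at most 2.18 CPM. Tox in Gzmb CD8-like cells is lowest in both libraries with the STING agonist, and Ctla4 is highest under the STING agonist in all 3 panels.

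Lag3 was lower in CD8-like cells of both libraries with the LTbR agonist. The Gzmb CD8-like ratio was 0.08 under the STING agonist, −0.22 under the LTbR agonist and −0.39 (−0.46 to −0.32) under the combination. In Gzmk CD8-like cells the ratios were larger, −1.03 (−1.42 to −0.64) and −0.73 (−1.07 to −0.39). Regulatory T-like cells showed it under the combination only, at 141 CPM against 244 untreated (−0.75, −1.07 to −0.42), and CD4 helper-like cells did not, at 230 against 199 CPM (0.20, −0.10 to 0.49).

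Havcr2 in Gzmb CD8-like cells was lower under the LTbR agonist (−0.48, −0.60 to −0.37) and close to untreated under the combination (−0.03, −0.12 to 0.06). The called difference of −0.68 in the T-like class under the LTbR agonist was −0.09 as an unweighted mean over subsets, which also ended that of Cd160 there (−0.77, or −0.18). Entpd1 was lower in CD4 helper-like cells of all 3 treated libraries, with 55.0 to 57.8 CPM against 91.4 CPM, and in regulatory T-like cells under the LTbR agonist (−0.46) and the combination (−0.55). Its ratio under the LTbR agonist was −1.06 (−1.43 to −0.72) in the shallow Myo10 cluster, and −0.44 in the T-like class without the Myo10, Nebl and Eya1 clusters. Tigit in Gzmb CD8-like cells had ratios of −0.11, 0.12 and −0.15. In Gzmc-Gzmf CD8-like cells it was called lower under the combination, at 144 against 267 CPM (−0.85, −1.33 to −0.38), from 28 and 34 cells. It was called higher under the STING agonist in the Klra1 cluster (0.84, 0.51 to 1.17) and in Th17-like cells under the STING agonist (0.76, −0.07 to 1.65) and the LTbR agonist (0.85, 0.06 to 1.72), where the untreated library had 12 UMIs. It was also higher under the combination in CD4 helper-like cells (0.59, 0.31 to 0.87) and Gzmk CD8-like cells (0.50, 0.16 to 0.84).

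In the NK-like class 1 of 10 genes was called in each comparison: Cd160 higher under the STING agonist, Pdcd1 lower under the LTbR agonist and Tox lower under the combination. Of 9324 genes 3.95%, 1.07% and 4.33% were called, and the medians were 0.26, −0.18 and −0.11 over the 10 genes against 0.04, −0.04 and −0.04 over all. Pdcd1 rests on 51 to 103 UMIs per library, at 42.5, 50.6, 15.2 and 36.5 CPM. In conventional NK-like cells it had 7.33, 12.5, 6.12 and 8.67 CPM, a ratio of −0.10 under the LTbR agonist, and in the Gzmc Klrb1b cluster 123, 83.1, 64.7 and 111 CPM. In each library 10 cells held 73.7% to 98.2% of that cluster's Pdcd1 UMIs. Tox in the class had 275, 182, 204 and 134 CPM, with a combination ratio of −0.98, against −0.45 in conventional NK-like cells. The shallow Eya1 cluster, mostly in this class, had 400 to 799 CPM of Tox. It went from 163 untreated cells to 37 under the combination, and its part in the class ratio was not tested.

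Single cells often carried several receptors. Cells were thinned to 2000 UMIs and counted as positive where at least 3 of Pdcd1, Lag3, Havcr2, Tigit and Ctla4 had a UMI. Among Gzmb CD8-like cells these were 71.9% (67.9 to 75.8) of 524 untreated cells, 74.3% (68.9 to 79.2) of 292 under the STING agonist, 60.1% (55.2 to 64.9) of 409 under the LTbR agonist and 66.3% (62.1 to 70.3) of 531 under the combination. The LTbR agonist library was the lowest, and its counting interval lay under those of the untreated and STING agonist libraries. All 5 receptors were found in 11.8%, 16.1%, 7.33% and 8.85% of the cells. In the macrophage- or monocyte-like class 0 of 1389 to 2839 cells per library were positive, which by the limit of 3 counts allows a share of up to 0.106% to 0.216% of cells with so many receptors detected at this depth.

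Other subsets carried fewer. Gzmk CD8-like cells were positive in 15.8%, 17.2%, 12.3% and 21.4%, and regulatory T-like cells in 33.1%, 25.6%, 26.3% and 26.2%, with overlapping intervals in each subset. CD4 helper-like cells split into a lower pair, untreated with 14.7% (9.67 to 21.1) and LTbR agonist with 15.0% (10.4 to 20.7), and a higher pair, STING agonist with 29.2% (22.4 to 36.7) and combination with 32.5% (25.5 to 40.2). Both libraries with the STING agonist were above both without it. At 1000 UMIs the split was less clear, at 8.20%, 9.63%, 6.33% and 14.0% (untreated, STING agonist, LTbR agonist, combination), with overlapping intervals. Without thinning the shares were 28.1%, 39.5%, 25.6% and 47.8%. Conventional NK-like cells reached at most 0.82%.

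**Figure D4:**
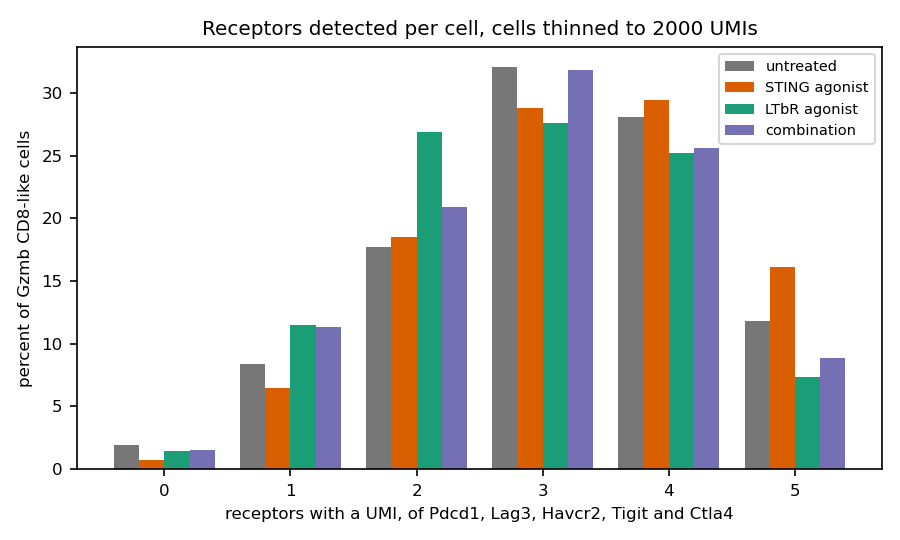
Percent of Gzmb CD8-like cells (thinned to 2000 UMIs) with a UMI of 0 to 5 of the receptors Pdcd1, Lag3, Havcr2, Tigit and Ctla4, with 1 bar per library. All 5 receptors were found in 7.33% (LTbR agonist) to 16.1% (STING agonist) of the cells.

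On the ligand side, Pdcd1lg2 was the member called in the macrophage- or monocyte-like class. It had 31.6 CPM untreated, 53.2 under the STING agonist, 44.8 under the LTbR agonist and 68.3 under the combination, from 819 to 1070 UMIs per library. All 3 treated libraries were above the untreated one, with ratios of 0.60 (0.49 to 0.71), 0.40 (0.29 to 0.50) and 0.91 (0.80 to 1.02). Of the 8 genes with enough UMIs there, 1, 0 and 1 were called, each time Pdcd1lg2, against 0.164%, 1.28% and 2.34% of 12210 genes. Medians of the 8 were −0.05, 0.00 and −0.00, and those of all genes 0.01, 0.00 and 0.02. The STING agonist call was kept in 8 of 12 alternatives (0.29 to 0.73).

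The difference was seen inside several macrophage and monocyte subsets. C1q Trem2 macrophage-like cells, named for complement and lipid-receptor genes, had 37.8 CPM (33.9 to 42.1) untreated, 77.4 (69.7 to 85.7) under the STING agonist, 43.8 (33.2 to 56.6) under the LTbR agonist and 93.6 (73.7 to 117) under the combination. Both libraries with the STING agonist were high there, although 76.0% of the 75 UMIs of the combination came from 10 of its 70 cells. Interferon-responding-like cells had 27.1, 33.6, 40.7 and 78.4 CPM, a combination ratio of 1.25 (0.95 to 1.55). Cxcl9 monocyte-like cells had 43.6, 94.3 and 137 CPM in the untreated, STING agonist and combination libraries.

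Cd274 in the same class had 451, 530, 391 and 432 CPM, with ratios of 0.23, −0.20 and −0.06. The unweighted mean over the subsets, which gives small subsets full weight, was 0.16, 0.10 and 0.18. Under the combination Cd274 was higher in both Ly6c2 monocyte-like subsets, from 421 to 648 CPM in the Cxcl10 subset (0.61, 0.46 to 0.77) and from 70.5 to 123 CPM in the Gm9733 subset (0.72, 0.44 to 1.01). It was also higher in interferon-responding-like cells (0.37) and lower in Cxcl9 monocyte-like cells (−0.79, −1.03 to −0.55) and C1q Trem2 macrophage-like cells (−0.20). The C1q Trem2 subset itself went from 841 untreated cells to 70.

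Neutrophil-like cells had more Cd274 under the STING agonist (0.62, 0.47 to 0.77), while Entpd1 in the same cells differed by 0.20. The combination gave 0.33 (0.09 to 0.56) from 67 cells, and the LTbR agonist −0.10.

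Mature dendritic-like cells went the other way. Their Cd274 ratio was −0.13 (−0.26 to −0.01) under the STING agonist, −0.58 (−0.69 to −0.47) under the LTbR agonist and −0.90 (−1.05 to −0.76) under the combination. After thinning, 75.6% (68.6 to 81.6), 62.9%, 53.7% and 35.3% (24.1 to 47.8) of the cells had a Cd274 UMI. The summed macrophage or monocyte markers of these cells were 913, 1023, 369 and 358 CPM in the same order of libraries, none of the 11 markers was at 0, and their part in the Cd274 difference was not tested. Pdcd1lg2 in these cells had ratios of −0.16, −0.46 and 0.15, like Cd274 in direction under both single agonists but not under the combination. The combination library was thus lowest for Cd274 and highest for Pdcd1lg2, the latter with an interval that overlapped the untreated one. Cd209a dendritic-like cells had Cd274 ratios of 0.09, −0.56 and −0.27, lowest under the LTbR agonist, and Pdcd1lg2 ratios of −0.16, −0.20 and 0.29.

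In the dendritic-like class 7 of the 10 genes had enough UMIs. None was called under the STING agonist, Ctla4 and Cd274 were called under the LTbR agonist and Ctla4 under the combination, all lower, against 1.32%, 1.32% and 3.07% of 10114 genes. Their medians were 0.01, −0.38 and −0.16, and those of all genes 0.01, 0.01 and −0.01. Cd274 had 576, 578, 377 and 386 CPM, and its LTbR agonist call (−0.60) was kept in 8 of 12 alternatives (−0.65 to −0.28). Ctla4 had 29.9, 27.7, 14.4 and 8.91 CPM from 25 to 213 UMIs, with combination ratios of −1.08 with all cells and −0.98 without those carrying a Cd3 or Trac UMI. The cDC1-like cells held 133 of the 213 untreated UMIs, and they were 55 of 620 cells of the class untreated and 9 of 234 under the combination. In Cd209a dendritic-like cells Ctla4 had 16.7 CPM untreated, 10.8 under the STING agonist, 3.95 under the LTbR agonist and 1.39 under the combination. Without cells carrying a Cd3 or Trac UMI, that subset had 64, 15, 9 and 2 Ctla4 UMIs. In mature dendritic-like cells Ctla4 had 5.99 CPM untreated, 43.6 under the STING agonist, 0.895 under the LTbR agonist and 10.1 under the combination, from 1 to 28 UMIs.

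Ratios between whole libraries were also computed at equal make-up of the subsets. Under the combination the ratio over all filtered cells was 0.57 for Pdcd1, 0.43 for Tigit, 0.53 for Ctla4 and −0.48 for Cd274. With the subsets of each library weighted as in the untreated library, these became 0.15, 0.01, 0.00 and −0.02. For Lag3 the ratio went from 0.04 to −0.30 and for Pdcd1lg2 from 0.19 to 0.46, so both were larger in size at equal make-up. Tox went from −0.27 to −0.58. Under the STING agonist Ctla4 kept 0.35 of 0.56 and Pdcd1 0.28 of 0.49.

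**Figure D5:**
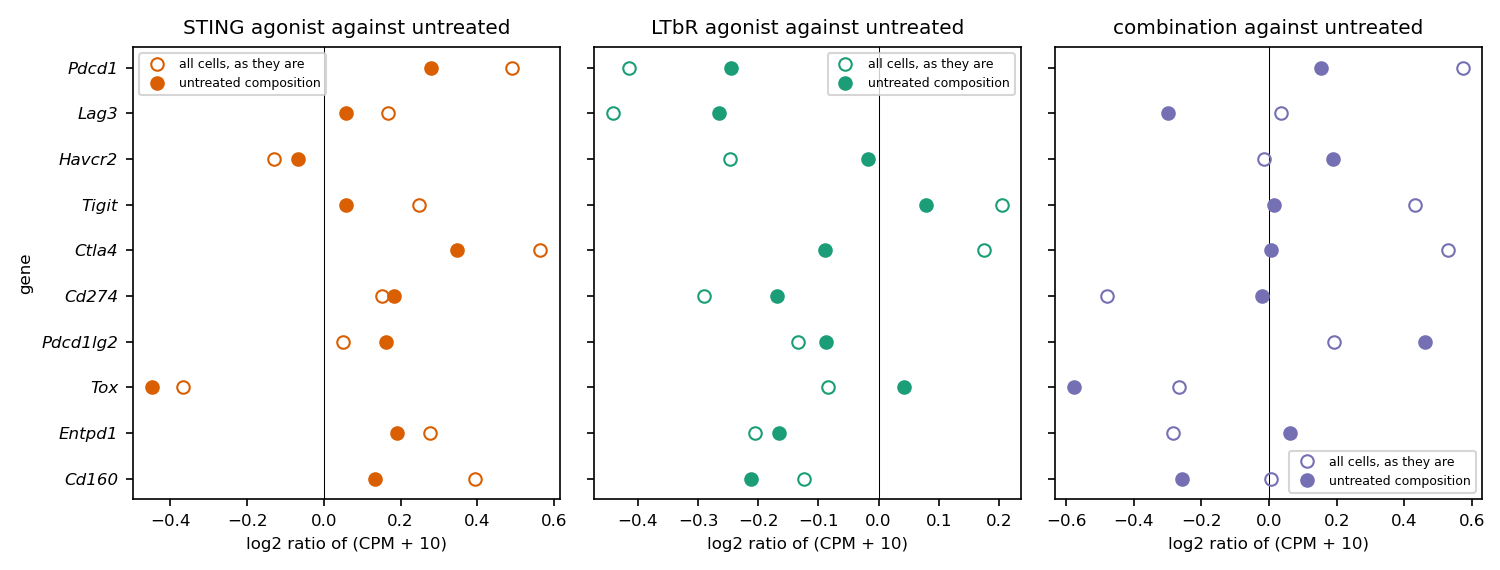
Log2 ratios of each treated library to the untreated one over all filtered cells, as they are (open) and with subsets weighted as in the untreated library (filled), for the 10 genes; the horizontal scale differs between panels. Under the combination Cd274 goes from −0.48 to −0.02 and Ctla4 from 0.53 to 0.00, and Tox from −0.27 to −0.58.

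A list of 39 partner genes held ligands of the receptors, paired and costimulatory receptors, factors of chronic T cell stimulation and inducers of the PD-1 ligands. In the T-like class 36 had enough UMIs, and 1 was called higher and 0 lower under the STING agonist, 0 and 1 under the LTbR agonist and 0 and 3 under the combination, beside the percentages given for that class. Nr4a1, an early factor of antigen receptor signalling, was the gene called under the STING agonist, at 173 against 102 CPM (0.71), and Irf1, an interferon-induced factor, had 240 against 164 CPM (0.52). The lowest there were Tox2, at 6.83 against 15.0 CPM (−0.57), and Cd244a, at 34.4 against 49.5 CPM (−0.42). Ifng, the interferon that induces PD-L1, was called lower under the LTbR agonist, at 210 against 362 CPM (−0.76), where Nr4a2 had 252 against 343 CPM (−0.43) and Tox2 25.6 CPM (0.51). Cd244a (24.7 CPM, −0.78), Nr4a2 (203 CPM, −0.73) and Ifng were called lower under the combination, and Ifngr2 was the highest at 0.58.

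Within the Gzmb CD8-like cells 33 partner genes had enough UMIs. Under the LTbR agonist Tox2, a relative of Tox, was called higher at 35.3 against 13.6 CPM (0.94), as was the inhibitory receptor Cd200r1 at 49.9 against 25.9 CPM (0.74). Irf4, at 37.7 against 62.1 CPM (−0.60), was called lower, and Ifng had 353 against 525 CPM (−0.56). Nr4a2 was the only gene called under the combination, at 243 against 443 CPM (−0.84). None was called under the STING agonist, where Nr4a1 (0.56) and Irf4 (0.50) were highest.

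In the macrophage- or monocyte-like class 33 partner genes had enough UMIs. Ceacam1, proposed as a ligand of TIM-3, had 10.7 CPM untreated and was called at 22.6 CPM under the LTbR agonist (0.66) and at 31.7 CPM under the combination (1.01). Cd226 was also called under the LTbR agonist, from 0.726 to 6.24 CPM (0.60), and none was called under the STING agonist, where Irf1 was highest at 312 against 236 CPM (0.39). Vsir, the inhibitory ligand VISTA, had 128 against 194 CPM under the combination (−0.56).

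Among 32 partner genes of the dendritic-like class, Irf1 was called higher under the STING agonist at 396 against 247 CPM (0.66), none was called under the LTbR agonist, and Cd200 was called lower under the combination at 72.4 against 123 CPM (−0.69). Of 28 in the NK-like class, Cd226, an activating receptor that shares ligands with TIGIT, was called higher under the STING agonist at 181 against 107 CPM (0.71), Cd200r1 lower under the LTbR agonist at 5.66 against 17.7 CPM (−0.82), and none under the combination.

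Likeness over 16 subsets with at least 20 cells in every library is given as a description, since all subsets come from the same libraries and 12482 genes were searched. The 16 subsets ran from T and NK to myeloid and dendritic cells. A high value can therefore reflect no more than the difference between those kinds of cell. The genes most like Ctla4 were Icos (Pearson r 0.983), Ccdc92 (0.978) and Slain1 (0.975), and those most like Pdcd1 were Cd3g (0.971), Cd3e (0.967) and Cxcr6 (0.961). Tigit was most like Gimap7 (0.975), Lck (0.971) and Cd2 (0.970), and Tox most like Xrcc5 (0.982), Zap70 (0.980) and Cd247 (0.977). For Lag3 the likest were Ptch1 (0.939), Runx2os1 (0.938) and 1700123M08Rik (0.934), and for Cd160 Wdr95 (0.976), Lmtk3 (0.957) and Dapk2 (0.956).

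Havcr2 was most like Mt1 (0.838), Crlf2 (0.799) and Pkm (0.787), Entpd1 most like Jdp2 (0.865), Gm16675 (0.856) and Rftn2 (0.844), Cd274 most like Gm36043 (0.964), AW011738 (0.895) and Ifrd1 (0.874), and Pdcd1lg2 most like Rhoc (0.877), Fbxl18 (0.852) and Cd1d1 (0.850). Among the 10 genes themselves the highest values were between Ctla4 and Tox (0.931), Tigit and Ctla4 (0.928) and Pdcd1 and Tox (0.917), and the lowest between Lag3 and Cd274 (−0.764). The neighbouring ligand genes Cd274 and Pdcd1lg2 had 0.293 with each other.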

How the data were processed

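Per the labels and the methods of the study, the authors sorted live CD45+ cells from pooled tumours, made 10x 5′ libraries and aligned reads to mm10 with Cell Ranger 7.1.0 (submitters' processing notes). Whether intronic reads were counted is not given in the sources used here. The deposited matrix holds raw UMI counts per gene and cell; libraries were told apart by the barcode suffix the labels state. Cells with 300 to 5000 genes and at most 6% mitochondrial UMIs were kept, as in the study. Clustering used scanpy 1.11.5 (2000 variable genes, 30 components, 20 neighbours, Leiden resolution 1) without the 10 genes and without antigen receptor segments. Classes and subsets were named from marker lists, with naming thresholds set after the clusters were seen. UMIs were summed per library and subset and scaled to CPM. Poisson and Clopper-Pearson intervals are exact, and intervals of ratios combine those of both libraries by square-and-add. Thinned shares used 1000 UMIs per cell, and 2000 for several receptors. Doublets were kept, as the study states no removal. Removing the 678 of 23011 cells with a Scrublet score of at least 0.2 was an alternative. The 10 genes and all lists were chosen with earlier results of these data known. Named genes are the 10, the 2 highest and 2 lowest partner genes of a comparison and the 3 likest genes of each member; 1 partner gene is not reported here. In data simulated with the depth of each class in the combination and untreated libraries, 98% to 100% of genes changed 2-fold were called and at most 0.278% of unchanged genes. Single subsets, which hold fewer UMIs than their class, were not simulated. The simulated counts held counting error only, with no variation between libraries. Changed genes were drawn only above a set level, so the first share does not cover lower genes, such as Cd160 in T-like cells (40.2 CPM untreated).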

Additional observations from a re-analysis of the deposited data

Results flagged for a closer look

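Results were picked out where a gene was called in opposite directions in 2 subsets under the same treatment, with both counting intervals clear of no change. The differences between subsets were not tested. Under the combination Entpd1 was higher in conventional NK-like cells (log2 ratio 0.72, from 29.3 to 54.9 CPM) and lower in CD4 helper-like cells (−0.64, from 91.4 to 55.0 CPM). Cd274 was higher under the combination in Ly6c2 monocyte-like cells of the Cxcl10 subset (0.61) and of the Gm9733 subset (0.72) and lower in mature dendritic-like cells (−0.90). These 5 are among 29 called ratios of receptors over T and NK subsets and of ligands over myeloid and dendritic subsets with at least 50 cells in both libraries.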

How the results depend on the processing

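No paired analysis was possible because each group has 1 library, and no replicate could be left out. Of 1989 ratios recomputed under the alternatives, 1789 stayed within their counting interval, 199 moved beyond it and 1 reversed: Cd160 under the STING agonist in the NK-like class, −0.12 as an unweighted mean over subsets. That mean also gave, in the macrophage- or monocyte-like class, 0.16, 0.10 and 0.18 for Cd274 (STING agonist, LTbR agonist, combination) and 0.29 for Pdcd1lg2 under the STING agonist. With the members left in the clustering, Cd274 under the LTbR agonist was −0.27 and Pdcd1lg2 0.28 (LTbR agonist) and 0.78 (combination). With the mean of each cell's CPM, Cd274 was −0.15 (LTbR agonist) and −0.16 (combination), Pdcd1lg2 0.48 (STING agonist) and 0.75 (combination), and Tox in Gzmb CD8-like cells −0.68 (STING agonist). TMM factors gave −0.12 for Cd274 under the combination. A pseudocount of 1 CPM gave 0.73 and 1.09 for Pdcd1lg2 (STING agonist, combination), and one of 50 CPM gave 0.34, 0.22 and 0.53. With gates on single genes, the CD8 ratios were 0.31 for Pdcd1 (STING agonist) and 0.16 and −0.97 for Tox (LTbR agonist, combination). That gate took every T-like cell with a Cd8a or Cd8b1 UMI and no Cd4 UMI, a wider set than the Gzmb CD8-like subset. Without the 10 top cells, Tox in Gzmb CD8-like cells was −0.66 under the STING agonist and Cd274 in mature dendritic-like cells −0.46 (STING agonist) and −1.09 (combination). At 2-fold, 9 counts of called genes became 0. Thinning to 1000 UMIs gave 36.5%, 41.1%, 29.8% and 31.4% of Gzmb CD8-like cells with at least 3 receptors, and no thinning 93.8%, 96.7%, 93.4% and 95.5%. In regulatory T-like cells these were 12.7%, 16.8%, 12.8% and 7.93% at 1000 UMIs (untreated, STING agonist, LTbR agonist, combination). Without thinning they were 40%, 46.5%, 40.9% and 47.4%. The highest library in regulatory T-like cells thus changed with depth: untreated at 2000 UMIs, STING agonist at 1000 and combination without thinning. The causes were not tested. Leaving out cells with a Cd3 or Trac UMI, cells with T and macrophage markers, and the Myo10, Nebl and Eya1 clusters (in the T-like class only) were alternatives chosen after seeing the data.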
